A study of Mus musculus with 8 samples.

Results

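The 7 genes described here, Gabra2, Gabra3, Gabra4, Gabra5, Gabrb1, Gabrb2 and Gabrg3, encode subunits of the GABA-A receptor. They were set against all 21627 protein-coding genes in RefSeq's table for the mouse assembly GRCm38.p6, which shares its coordinates with the files' build, mm10. A peak belonged to a gene when it overlapped the gene's span or the 20 kb to either side, and a peak within reach of several of the 7 genes went to the nearest span. The rule used position only, and it found 401 of the 378623 peaks in the 8 deposited lists, or 0.106%. Of these, 6 overlapped the spans of both Gabra4 and Gabrb1, whose first bases overlap head to head, and were credited to both genes. Another 30 also lay in a protein-coding gene outside the 7, 22 of them credited to Gabra5 and 8 to Gabrb1.

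The lists give regions marked by acetylation of histone H3 at lysine 27 (H3K27ac) in primary cultures from embryos of C57/BL6 mice, found by chromatin immunoprecipitation and sequencing (ChIP-seq) with the antibody ab4729. The 4 groups of 2 libraries were MGE cultures with KCl, MGE cultures left unstimulated, CTX cultures with KCl and CTX cultures left unstimulated. All 4 groups were first silenced with 1 µM TTX, which blocks sodium channels, and 100 µM D-AP5, which blocks NMDA receptors, through the night of day 6 in vitro. The KCl groups were then depolarised for 2 h with 55 mM KCl on day 7. CTX is taken as cortex and MGE as the medial ganglionic eminence, the embryonic source of many cortical interneurons, because the labels give the abbreviations alone. Labels conflict on the tissue: CTX titles name embryonic day 14 while the source field names day 16 throughout, and the MGE libraries, too, are listed as cortical neurons. The libraries of a group are numbered as biological replicates with no word on what was kept separate, so p-values measure only library-to-library spread, some of which may be technical.

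GABA-A receptors are chloride channels opened by the transmitter GABA, and each is built of 5 subunits, most often of the alpha, beta and gamma classes. The alpha subunit sets much of the receptor's place in the cell and its drug response, beta subunits carry part of the GABA binding site, and the gamma subunit holds receptors at synapses and forms the benzodiazepine site with an alpha subunit. The genes lie in clusters, here on chromosome 5 (Gabra2, Gabra4, Gabrb1), chromosome 7 (Gabra5, Gabrg3), chromosome 11 (Gabrb2) and X (Gabra3). H3K27ac lies at promoters and enhancers in use. In bulk cultures like these, fewer cells of a type and less acetylation per cell cannot be told apart.

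Of the 7 genes, 5 had a peak within 1 kb of a transcript start in all 8 libraries, namely Gabra2, Gabra5, Gabrb1, Gabrb2 and Gabrg3. Gabra4 had one in 7 libraries, all but MGE unstimulated 1, and Gabra3 in 6, all but MGE unstimulated 2 and CTX unstimulated 1. At Gabrb1 the start inside the gene, chr5:71699932, had a peak in all 8 libraries. The Gabrb1 start beside that of Gabra4, chr5:71657921, had one in 7, all but MGE unstimulated 1. Over the 17273 genes with a listed start, 41.6% were called there in all 8 libraries and 40.8% in none. RefSeq (GRCm38.p6) gave 11 starts for the 7 genes, and 4 of the 250-base stretches just before a start are shown because they run from CG-rich to CG-free and because 1 of them holds 2 overlapping motifs. In the Gabra2, Gabrg3 and Gabra3 sequences capitals mark each CG step, and in the Gabrb2 sequence they mark a match to the 10-base motif of MEF2 factors.
Gabra2, chr5:71095850-71096099, minus strand: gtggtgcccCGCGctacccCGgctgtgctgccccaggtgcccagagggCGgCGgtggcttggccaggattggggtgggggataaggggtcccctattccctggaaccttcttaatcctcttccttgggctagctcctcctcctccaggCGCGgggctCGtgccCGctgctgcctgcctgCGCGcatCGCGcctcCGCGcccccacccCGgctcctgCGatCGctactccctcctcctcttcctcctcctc
Gabrg3, chr7:57387216-57387465, minus strand: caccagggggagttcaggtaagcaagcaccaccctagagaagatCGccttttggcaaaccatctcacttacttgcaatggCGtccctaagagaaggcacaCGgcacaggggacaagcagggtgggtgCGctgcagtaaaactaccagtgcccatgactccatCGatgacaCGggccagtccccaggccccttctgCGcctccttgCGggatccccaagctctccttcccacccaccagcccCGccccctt
Gabra3, chrX:72656808-72657057, minus strand: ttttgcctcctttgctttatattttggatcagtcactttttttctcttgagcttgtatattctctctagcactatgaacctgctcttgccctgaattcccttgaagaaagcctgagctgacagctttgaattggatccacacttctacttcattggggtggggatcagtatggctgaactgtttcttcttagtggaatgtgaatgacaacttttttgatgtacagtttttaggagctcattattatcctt
Gabrb2, chr11:42420190-42420439, plus strand: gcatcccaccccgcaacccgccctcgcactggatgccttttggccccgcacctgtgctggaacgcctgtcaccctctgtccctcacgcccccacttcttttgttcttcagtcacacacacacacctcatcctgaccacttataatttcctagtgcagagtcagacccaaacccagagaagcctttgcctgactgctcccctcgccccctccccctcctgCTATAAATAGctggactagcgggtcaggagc

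The Gabra2 stretch held 18 CG steps and 70% G or C, the Gabrg3 stretch 9 and 60.4%, the Gabrb2 stretch 8 and 58.8%, and the Gabra3 stretch 0 and 39.2%. The other Gabra3 start, which shares most of these bases, also had 0. The median over all 32851 listed promoters was 6 CG steps and 52.4% G or C. Over all genes the share called at a start in all 8 libraries went with this count: it was 0.508% of the 1182 genes with no CG step in any listed stretch, 29.0% of those with 5 to 9, and 71.2% of those with 15 or more. Gabra3, with no CG step, was called in 6 libraries, where 97.0% of genes with none were called in no library.

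Motifs of 6 kinds were searched on both strands of the 11 stretches. None held the AP-1 motif TGACTCA, the cAMP response element TGACGTCA or the EGR motifs GCGTGGGCG and GCGGGGGCG, which 4.46%, 1.55% and 3.06% of all listed promoters held. The E-box CANNTG, found in 66.2% of all promoters, was in the Gabra2 stretch, in that of Gabra5 at 2 places, and in the Gabrb2 stretch shown. The MEF2 motif was in the Gabrb2 stretch alone, beginning 31 bases before the start, and 0.140% of all promoters hold it. Inside it lies a TATA box (TATAAA on the gene's own strand) 30 bases before the start, a motif that 12.4% of all promoters hold. Both Gabra3 stretches held 1 and the same match, which reads TATAAA on the strand opposite the gene, 123 bases before the upstream start and 235 before the downstream one. A match of letters is a description, and the lists do not show which factors bind.

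The amount of called sequence at a gene is given as bases of peaks per megabase (Mb) called in the whole library, because the lists covered 21.1 to 44.7 Mb and held 36035 to 66827 peaks, with the 2 CTX libraries of replicate 2 the largest. Peaks were called per library, and read depth is unknown. A region missing from a list may lie just under the caller's threshold. The 7 genes together held 57 and 58 distinct peaks in the MGE KCl libraries and 42 and 37 in the MGE unstimulated ones. They held 43 and 70 in the CTX KCl libraries and 39 and 55 in the CTX unstimulated ones.

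**Figure D1:**
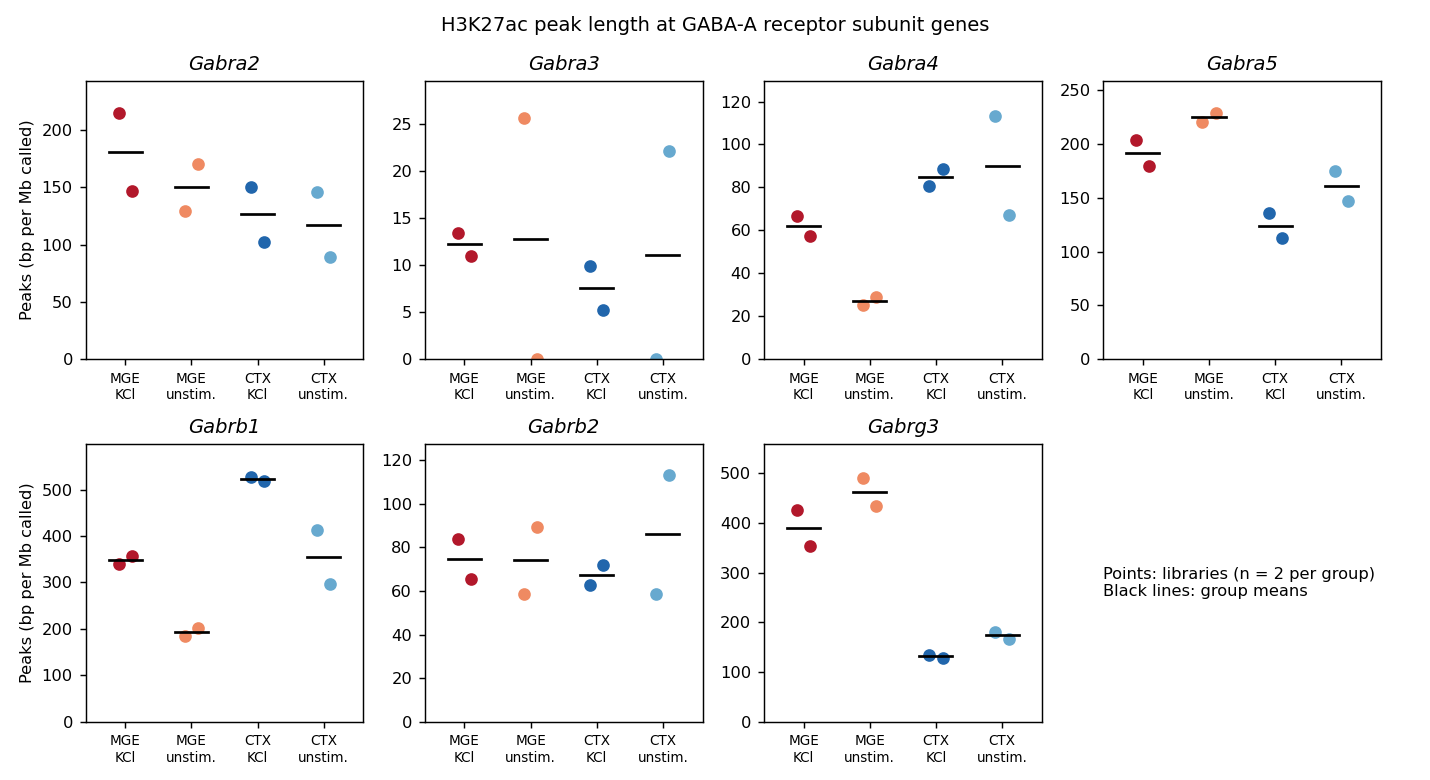
Bases of H3K27ac peaks per Mb called (vertical axes, from 0, each panel with its own range) at the 7 genes, with a point for each library and a black line for the mean of the 2 libraries of a group. Gabrg3 sits at 352 to 490 in the 4 MGE libraries and at 128 to 181 in the 4 CTX libraries, and Gabrb1 sits higher with KCl than without it in each culture.

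MGE and CTX cultures differed at 4 of the 7 genes. Gabrg3 and Gabra5 carried more called sequence in MGE cultures, and Gabra4 and Gabrb1 carried less. By limma on log2(bp per Mb + 10), with p adjusted over the 16741 genes called in at least 2 libraries, 2 of the 7 genes were higher in MGE and 2 lower, against 9.87% higher and 12.4% lower of all genes tested. The median log2 difference was 0.21 over the 7 genes and 0.09 over all genes. Of the genes called, 44.3% were higher in MGE, and 16.5% without scaling to called sequence, where the median of all genes was -0.31. Among peaks with a −log10 q of at least 5 none of the 4 passed by limma: the log2 differences were 1.77 for Gabrg3 (adjusted p = 0.31), -0.24 for Gabra5 (0.72), -2.11 for Gabra4 (0.35) and -0.99 for Gabrb1 (0.44).

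Gabrg3, which encodes the gamma-3 subunit, a gamma subunit of low abundance, gave the widest gap of the 7. It held 425 and 352 bp per Mb in the MGE KCl libraries, 490 and 433 in the MGE unstimulated ones, 135 and 128 in the CTX KCl ones and 181 and 167 in the CTX unstimulated ones. The 4 MGE libraries all lay above the 4 CTX libraries. The log2 difference, MGE minus CTX, was 1.42 ± 0.13 (SE, n = 4 and 4), a 2.68-fold difference on the scale with the added 10 (limma, adjusted p = 7.6e-05).

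The gap at Gabrg3 was present on both sides of the midpoint of its span of 671 kb on chromosome 7. On the side of the span's midpoint nearer the start the MGE libraries held 181 to 226 bp per Mb and the CTX libraries 63.2 to 111, and on the far side they held 171 to 264 and 35.5 to 91.7. Overlapping peaks of all libraries merged to 40 loci at Gabrg3. Of these, 5 were called in all 4 MGE libraries and in no CTX library, against 2.68% of merged loci in the genome. All 5 lay in the far part of the gene, 467 to 621 kb from the start.

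The nearest of these 5, chr7:56919186-56920219, had peaks of 377 and 569 bp in the MGE KCl libraries and 271 and 905 bp in the MGE unstimulated ones. The others were chr7:56863617-56864241, chr7:56811099-56811973, chr7:56809937-56810378 and chr7:56765650-56766339. In the authors' deposited values the fold enrichment of the peaks at the 5 loci lay between 2.27 and 4.26. The −log10 q of these peaks lay between 1.57 and 5.75. It reached the stricter cut of 5 only at chr7:56811099-56811973 in MGE KCl 2 and at chr7:56863617-56864241 in MGE unstimulated 1. Most of these calls were thus weak, and whether CTX signal there lay just under the caller's threshold was not tested. The opposite pattern, called in all 4 CTX libraries and no MGE library, appeared at chr7:57103901-57104326 only among the 40, with deposited folds of 2.72 and 4.89 in the CTX KCl libraries and 3.04 and 4.89 in the CTX unstimulated ones.

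Cultures shared 3 loci at Gabrg3 in all 8 libraries. They were the start, chr7:57385924-57387567, and chr7:57050978-57052222 and chr7:57037208-57038773, which lie 335 and 348 kb into the gene. A further locus 20.4 kb into the gene, chr7:57364845-57366851, was called in every library but CTX KCl 1. The start peak itself was 1181 and 1611 bp long in the MGE KCl libraries, 1432 and 806 bp in the MGE unstimulated ones, 691 and 915 bp in the CTX KCl ones and 512 and 928 bp in the CTX unstimulated ones.

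Gabra5 encodes the alpha-5 subunit, known for receptors outside synapses that carry tonic inhibition in the hippocampus, and lies beside Gabrg3. It held 204 and 180 bp per Mb with KCl and 220 and 229 without it in MGE cultures, and 135 and 113 with KCl and 175 and 147 without it in CTX cultures. The MGE libraries lay above the CTX ones, with the closest pair 180 in MGE KCl 2 and 175 in CTX unstimulated 1. The log2 difference was 0.53 ± 0.14 (SE, n = 4 and 4; limma, adjusted p = 0.020). Of the 55 Gabra5 peaks 40%, with 48.9% of their bases, lay in another protein-coding gene as well, and without them the difference was 0.80 (limma, adjusted p = 0.0077). With all its peaks the call was lost, at 0.07, without scaling to called sequence (limma, adjusted p = 0.84), at 0.19 with equal called bases (adjusted p = 0.32) and at 0.41 over the gene span alone (adjusted p = 0.061). Among peaks with −log10 q of 5 or more the difference turned to -0.24 (limma, adjusted p = 0.72). The call was also lost when any 1 of MGE KCl 1, MGE unstimulated 1, MGE unstimulated 2, CTX KCl 2 or CTX unstimulated 2 was left out (limma, adjusted p from 0.0275 to 0.0785 over all 8 omissions).

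Of 15 Gabra5 loci, 2 were called in all 4 MGE libraries and no CTX library, against 2.68% of merged loci in the genome. They were chr7:57448795-57449763 and chr7:57473739-57474270, which lay 60.3 and 35.8 kb downstream of the start. The −log10 q of their peaks lay between 2.06 and 3.89, under the stricter cut of 5. Another 2, chr7:57447916-57448395 and chr7:57462392-57463253, were called in 3 MGE libraries and no CTX library. The listed start, chr7:57508678-57510433, and a locus 80.0 kb upstream of it, chr7:57590083-57592322, were called in all 8. The upstream locus covers the upstream end of the Gabra5 span and also lies in another gene.

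**Figure D2:**
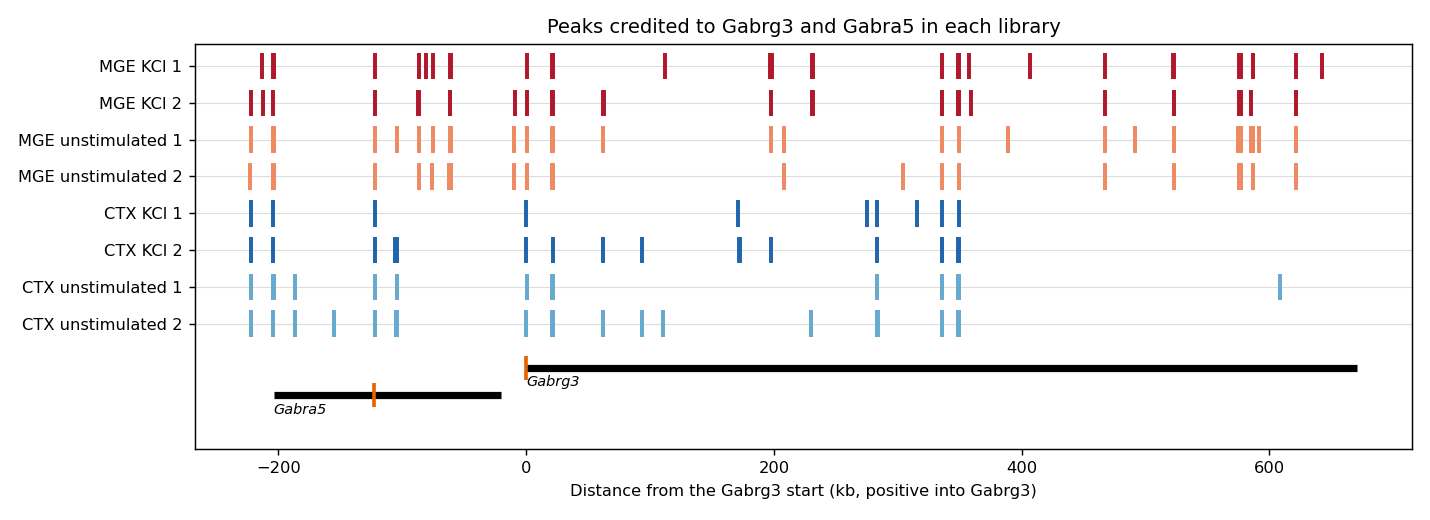
Peaks credited to Gabrg3 and Gabra5 in the 8 libraries (rows), drawn at their centres against the distance from the Gabrg3 start in kb (horizontal axis, positive into Gabrg3), with gene spans in black and listed starts in orange. Between 467 and 621 kb from the start lie 5 loci called in all 4 MGE libraries and none in CTX libraries, which hold 1 peak in that stretch.

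Gabrb1 and Gabra4 lie head to head on chromosome 5 and were both lower in MGE cultures. Gabrb1, which encodes the beta-1 subunit, held 340 and 357 bp per Mb in the MGE KCl libraries, 185 and 201 in the MGE unstimulated ones, 527 and 517 in the CTX KCl ones and 414 and 296 in the CTX unstimulated ones. The MGE and CTX ranges overlapped over all 8 libraries and did not overlap within either treatment. The log2 difference was -0.70 ± 0.14 (SE, n = 4 and 4; limma, adjusted p = 0.0045).

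Gabra4 encodes the alpha-4 subunit, found largely outside synapses in thalamus and forebrain. It held 66.4 and 57.4 bp per Mb with KCl and 25 and 29.1 without it in MGE cultures, and 80.5 and 88.8 with KCl and 113 and 67 without it in CTX cultures. Every MGE library lay below every CTX library, by a margin of 66.4 against 67 at the closest. The log2 difference was -0.90 ± 0.20 (SE, n = 4 and 4; limma, adjusted p = 0.010), and without CTX KCl 2 it was -0.87 with an adjusted p of 0.051.

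Inside Gabrb1, 3 of its 43 loci were called in all 4 CTX libraries and no MGE library, against 4.83% of merged loci in the genome. They were chr5:71746806-71747262, chr5:72067455-72068688 and chr5:72069001-72069602, the last with deposited fold enrichments of 3.91 and 4.52 in the CTX KCl libraries and 3.95 and 4.92 in the CTX unstimulated ones. The reverse held at chr5:72036007-72036798, called in the 4 MGE libraries with folds of 3.92 and 4.64 with KCl and 3.63 and 3.41 without it. So the gene that was lower in MGE cultures as a whole still held a locus called in MGE libraries alone.

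In the body of Gabra4, chr5:71604437-71605262 was called in 1 MGE library and all 4 CTX libraries, and its neighbour chr5:71603072-71604366 in 3 MGE libraries and all 4 CTX libraries. Of the 7 Gabra4 loci, 4 were called in a single library.

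The 3 genes without a call between cultures were Gabra2, Gabra3 and Gabrb2. Gabra2 encodes the alpha-2 subunit, common at forebrain synapses and early in life. It held 215 and 147 bp per Mb with KCl and 129 and 171 without it in MGE cultures, and 151 and 103 with KCl and 146 and 88.9 without it in CTX cultures. The ranges overlapped, and the log2 difference was 0.42 ± 0.21 (SE, n = 4 and 4; limma, adjusted p = 0.18).

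One Gabra2 locus, chr5:70995937-70996798, 99.1 kb from the start, was called in all 4 CTX libraries, over 645 and 818 bp with KCl and 712 and 817 bp without it, and in no MGE library. The start peak of Gabra2 was called in all 8 libraries, over 1952 and 2216 bp in the MGE KCl libraries, 1463 and 1790 bp in the MGE unstimulated ones, 2193 and 2268 bp in the CTX KCl ones and 1665 and 2015 bp in the CTX unstimulated ones. The locus chr5:71011494-71012303, 83.5 kb into the gene, was also called in all 8 libraries.

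Gabrb2 encodes the beta-2 subunit, the most abundant beta subunit of the adult brain. It held 83.7 and 65.5 bp per Mb with KCl and 58.7 and 89.4 without it in MGE cultures, and 62.8 and 71.8 with KCl and 58.7 and 113 without it in CTX cultures. The log2 difference of -0.02 ± 0.23 between the cultures (SE, n = 4 and 4; limma, adjusted p = 0.97) was smaller than its error, and its sign turned under several settings. Most of its called sequence over the 8 libraries was the peak at the start, chr11:42419508-42422091, called in each of them. In CTX unstimulated 2, among the largest lists, the start held 2329 of 4864 bp, and the gene held 10 peaks. Of the 14 Gabrb2 loci, 12 were called in a single library.

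Gabra3 encodes the alpha-3 subunit, prominent before birth and at some adult synapses. Its single recurring locus, chrX:72655515-72656198, 0.609 kb from the nearer start, was called in 3 MGE and 3 CTX libraries. It held 13.4 and 11 bp per Mb with KCl and 25.6 and 0 without it in MGE cultures, and 9.91 and 5.19 with KCl and 0 and 22.2 without it in CTX cultures. These levels were the lowest of the 7 genes in bases, and the log2 difference between cultures was 0.21 ± 0.46 (SE, n = 4 and 4; limma, adjusted p = 0.77).

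Exact permutation over all 70 ways to split 8 libraries gave the smallest two-sided p the design allows, 0.0286, for Gabra4, Gabra5 and Gabrg3, whose cultures did not overlap. Adjusted over the 7 genes these exact permutation values were 0.0667, so they did not pass. Gabrb1, whose cultures overlapped, had 0.0857 by the same permutation, or 0.15 adjusted. Permuting culture within treatments, exact two-sided p was 0.0556 for Gabra4, Gabra5, Gabrb1 and Gabrg3, the smallest value that scheme allows. Non-overlap with MGE higher held for 2 of the 7 genes, against 9.95% of all genes, and with MGE lower for 1, against 9.81%.

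Markers of cell types moved with the culture as well, and their part in the differences above was not tested. Of 13 GABAergic and MGE markers 7 were higher in MGE cultures by limma, with summed levels of 1976 to 2496 bp per Mb in MGE libraries and 1017 to 1135 in CTX libraries. Of 8 tested glutamatergic cortical markers 6 were lower in MGE, with sums of 351 to 499 in MGE libraries and 548 to 961 in CTX libraries, and Neurod6 was at 0 in all 4 MGE libraries. Sums in MGE and in CTX libraries were 185 to 432 and 466 to 614 for 6 astrocyte markers, 3 of them lower in MGE, and 120 to 211 and 482 to 654 for 6 oligodendrocyte lineage markers, 5 of them lower. They were 185 to 338 and 384 to 487 for 5 progenitor markers, 2 of them lower, and 1544 to 1793 and 1058 to 1366 for 5 neuronal markers, 3 of them higher. They were 128 to 203 and 68.4 to 112 for the 5 microglia markers, with 1 of 4 tested higher. For the 5 endothelial and mural markers they were 158 to 235 and 180 to 317, with 1 of 4 tested higher and 1 lower. The microglia list and the endothelial and mural list each had 1 gene without a peak. Gad1, a GABAergic marker, was called at like levels in both cultures, 58.1 to 85.8 in MGE libraries and 66.5 to 90.0 in CTX libraries.

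**Figure D3:**
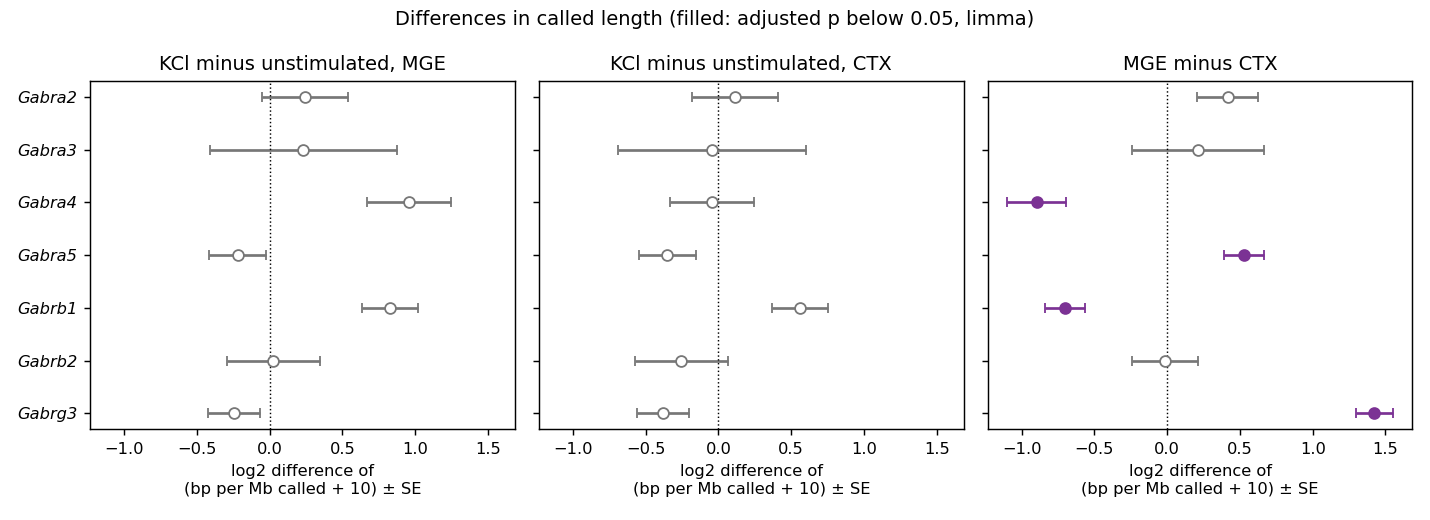
Log2 differences of called sequence (horizontal axes; points with SE, 8 libraries in one limma fit) at the 7 genes for KCl minus unstimulated in MGE cultures, the same in CTX cultures, and MGE minus CTX. Filled points mark adjusted p below 0.05: Gabra4, Gabra5, Gabrb1 and Gabrg3 between cultures, and none for KCl.

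The second comparison asked how depolarisation moved these genes. None of the 7 passed for KCl in either culture or for the difference of the KCl responses, by limma with adjusted p. At an unadjusted p under 0.05 there were 2 in MGE cultures (Gabra4, Gabrb1), 1 in CTX cultures (Gabrb1) and 1 for the difference of responses (Gabra4), against 14.5%, 12% and 7.44% of all genes. No exact test of 2 libraries against 2 can go below 0.33. Of all genes tested 1.37% were higher and 0.478% lower with KCl in MGE cultures, 0.0836% higher and 0.0836% lower in CTX cultures, and 0.0119% and 0% in the difference. The median log2 difference with KCl was 0.23 over the 7 genes and 0.00 over all genes in MGE cultures, and -0.04 over the 7 genes and 0.08 over all genes in CTX cultures. Of the genes called with KCl 74.1% were higher in MGE cultures and 50.0% in CTX cultures, and with equal called bases in each library 49.6% and 61.9%.

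Fos, an immediate-early gene that depolarised neurons switch on, served as a check of the stimulus. It held 189 and 183 bp per Mb with KCl and 73.1 and 77.6 without it in MGE cultures, and 190 and 150 with KCl and 72.6 and 76.5 without it in CTX cultures. The log2 differences were 1.20 ± 0.21 in MGE (SE, n = 2 and 2; limma, adjusted p = 0.023) and 1.08 ± 0.21 in CTX (limma, adjusted p = 0.075). Npas4, another activity-dependent transcription factor gene, had log2 differences of 0.84 ± 0.26 in MGE and 0.64 ± 0.26 in CTX, neither past the threshold by limma (adjusted p = 0.14 and 0.36).

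Gabrb1 held more called sequence with KCl in both cultures, without passing the test. The levels given above put both KCl libraries over both unstimulated ones in each culture, a pattern that 1 of the 7 genes and 9.23% of all genes showed. The log2 difference was 0.82 ± 0.19 in MGE (SE, n = 2 and 2; limma, adjusted p = 0.060) and 0.56 ± 0.19 in CTX (limma, adjusted p = 0.25). The difference between these 2 responses was 0.26 ± 0.27 (limma, adjusted p = 1.00). The MGE value passed with an added 50 in place of 10 (0.72, adjusted p = 0.038) and with equal called bases in each library (0.84, adjusted p = 0.039), and also without CTX unstimulated 1 or 2 (adjusted p = 0.048 for each).

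The summed level of the 6 astrocyte markers was also higher with KCl in MGE cultures. It was 267 and 432 bp per Mb with KCl and 188 and 185 without it, with 1 of the 6 passing. The glutamatergic cortical sum was higher too, at 451 and 499 with KCl and 374 and 351 without it. The endothelial and mural sum was lower, at 158 and 200 with KCl and 235 and 220 without it. None of the markers in these last lists passed in MGE cultures. In MGE cultures the sums of the other marker lists overlapped between treatments. In CTX cultures the oligodendrocyte lineage sum was higher with KCl, at 606 and 654 against 482 and 582 without it. The neuronal sum was lower there, at 1058 and 1164 against 1366 and 1207. The microglia sum was lower, at 68.4 and 72.3 against 96.3 and 112. The endothelial and mural sum was also lower, at 180 and 207 against 317 and 266, with 1 of 4 tested markers lower by limma. The other CTX sums overlapped. The part of any marker list in the Gabrb1 values was not tested.

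At single loci, 4 of the 20 Gabrb1 loci with any MGE call were called in both MGE KCl libraries and in neither MGE unstimulated library. In the genome 8.02% of loci with any MGE call were. Of the 4 Gabrb1 loci, 3 were called in all 4 CTX libraries too, with or without KCl. One was chr5:72093892-72094651, with peaks of 603 and 701 bp in the MGE KCl libraries, none in the MGE unstimulated ones, 666 and 699 bp in the CTX KCl ones and 675 and 674 bp in the CTX unstimulated ones.

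Another was chr5:71986283-71988472, with 518 and 527 bp in the MGE KCl libraries, none in the MGE unstimulated ones, 1812 and 2190 bp in the CTX KCl ones and 1805 and 1913 bp in the CTX unstimulated ones. The third was chr5:71827747-71828904, at 374 and 520 bp in the MGE KCl libraries, none in the MGE unstimulated ones, 337 and 782 bp in the CTX KCl ones and 386 and 606 bp in the CTX unstimulated ones. The fourth, chr5:71973000-71973383, was called in 1 CTX library. In CTX cultures 4 of the 38 Gabrb1 loci with any CTX call were called in both KCl libraries and neither unstimulated one. In the genome 6.08% of loci with any CTX call were. The other 2 loci of the 7 genes gained in CTX in this way lay at Gabra2 and Gabrg3.

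The shared start of Gabra4 and Gabrb1, chr5:71656930-71658586, was nearly unlisted in MGE cultures without KCl. Its peaks spanned 1177 and 1166 bp in the MGE KCl libraries, and 0 and 237 bp in the MGE unstimulated ones. In CTX cultures they spanned 1180 and 1183 bp with KCl and 1173 and 968 bp without it. In bins of 500 bp, called when at least 50% of the bin lay in peaks, this start was the 1 run of 2 or more bins at the 7 genes that both MGE KCl libraries and neither MGE unstimulated library held, of 491 in the genome. The 1 run lost in MGE, held by both unstimulated libraries and neither KCl library, lay in Gabrg3 at chr7:57179001-57180000, of 120 in the genome.

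Gabra4 had a log2 difference with KCl of 0.96 ± 0.29 in MGE (SE, n = 2 and 2; limma, adjusted p = 0.13) and -0.04 ± 0.29 in CTX (limma, adjusted p = 1.00). With every peak of the shared start locus credited to neither gene, the Gabra4 value in MGE was -0.27 (limma, adjusted p = 0.86) and the Gabrb1 value 0.63 (adjusted p = 0.13).

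**Figure D4:**
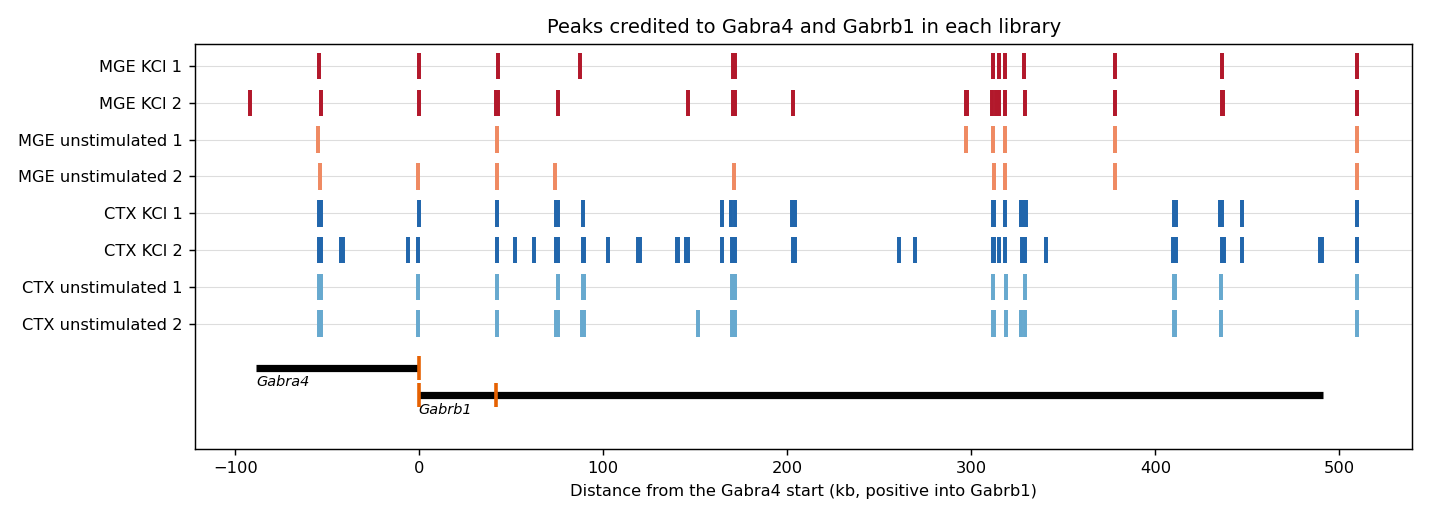
Peaks credited to Gabra4 and Gabrb1 in the 8 libraries (rows), drawn at their centres against the distance from the Gabra4 start in kb (horizontal axis, positive into Gabrb1), with gene spans in black and listed starts in orange. Gabrb1 holds 12 and 19 peaks in the MGE KCl libraries, 6 and 7 in the MGE unstimulated ones, 23 and 37 in the CTX KCl ones and 14 and 18 in the CTX unstimulated ones.

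Gabrg3 and Gabra5 had lower values with KCl in both cultures, with both KCl libraries under both unstimulated ones in each, as 2 of the 7 genes and 4.53% of all genes did. The log2 differences of Gabrg3 were -0.24 ± 0.18 in MGE and -0.38 ± 0.18 in CTX (SE, n = 2 and 2; limma, adjusted p = 0.64 and 0.46). Those of Gabra5 were -0.22 ± 0.19 in MGE and -0.35 ± 0.19 in CTX (limma, adjusted p = 0.72 and 0.55). Without scaling to called sequence the MGE values turned to 0.00 for Gabrg3 and 0.02 for Gabra5. Among peaks with −log10 q of 5 or more Gabra5 turned to 0.51 in MGE and 0.34 in CTX (limma, adjusted p = 0.79 and 1.00).

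Permuting KCl within cultures, exact two-sided p was 0.0556 for Gabra5, Gabrb1 and Gabrg3, the smallest value the design allows, and 0.130 after adjustment over the 7 genes. Gabra2 had log2 differences of 0.24 ± 0.29 in MGE and 0.11 ± 0.29 in CTX, Gabra3 of 0.23 ± 0.64 and -0.04 ± 0.64, and Gabrb2 of 0.03 ± 0.32 and -0.25 ± 0.32 (SE, n = 2 and 2), all smaller than their errors.

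At Gabra2, 3 loci were called in both MGE KCl libraries and neither MGE unstimulated one, and at Gabrg3 2 were, while Gabra3, Gabra4, Gabra5 and Gabrb2 had none. Over the 7 genes 9 of the 80 loci with any MGE call were gained with KCl in this sense, or 11.25%, against 8.02% of such loci in the genome. Loci lost in MGE were 2 of 80, or 2.50%, against 3.80%. In CTX cultures 6 of 87 were gained, or 6.90%, against 6.08%, and 3 were lost, or 3.45%, against 4.24%. These shares were not tested.

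Between cultures, 8 of the 131 merged loci, or 6.11%, were called in all 4 MGE libraries and no CTX library, against 2.68% in the genome, and 5 of those 8 were in Gabrg3. The reverse held for 5, or 3.82%, against 4.83%. Of the 131 loci 12, or 9.16%, were called in all 8 libraries, against 11.4%, and 61, or 46.6%, in a single library, against 37.4%.

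Of 8 further subunit genes examined, 4 had enough calls to be tested, and Gabrg1, which encodes the gamma-1 subunit and belongs to the chromosome 5 cluster, was the 1 that passed, between cultures. It held 60.8 and 72.3 bp per Mb with KCl and 79.4 and 90.1 without it in MGE cultures, and 26.8 and 30.3 with KCl and 30.3 and 27.6 without it in CTX cultures. Every MGE library lay above every CTX library, with a log2 difference of 1.13 ± 0.19 (SE, n = 4 and 4; limma, adjusted p = 0.0020). Gabrg1 was called at its start in all 8 libraries and Gabrr2 in 2, while Gabra6, Gabre, Gabrp, Gabrq, Gabrr1 and Gabrr3 were called there in none.

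Of 20 genes for partners at inhibitory synapses, 3 were higher and 2 lower in MGE cultures by limma. Of all genes tested, 9.87% were higher and 12.4% lower. None of the 20 passed for KCl in either culture. The median log2 difference between cultures was 0.27 over the 20 and 0.09 over all genes. The higher ones were Gabbr1, a subunit of the GABA-B receptor (0.67), Lhfpl4, which holds GABA-A receptors at synapses (0.65), and Insyn2a, an inhibitory synapse protein (0.76, adjusted p = 0.049). The lower ones were Plcl1, which binds GABA-A receptor beta subunits (-1.30), and Gabbr2, the other GABA-B subunit (-0.83).

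The genes whose log2 levels over the 8 libraries were most like those of a subunit gene were Echs1 and D7Ertd443e for Gabrg3 (Pearson r = 0.99 each), Usp3 and Cadm2 for Gabrb1 (0.98 each), Dip2b and Tank for Gabra4 (0.98 and 0.97) and Fdx1 and Hps6 for Gabra5 (0.99 each). For Gabra2 they were Syce3 and Plekhb2 (0.99 each), for Gabra3 Rps6kl1 and Pdpr (0.95 and 0.93) and for Gabrb2 Myrfl and Ctsb (0.94 and 0.93). These are the highest of 15803 genes searched over 8 libraries, so high values were bound to be found, and they are given as a description.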

How the data were processed

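H3K27ac ChIP-seq peak lists of 8 libraries were used, 1 list per library, in 4 groups of 2 that the titles name. The submitters' processing notes name MACS3 3.0.0a7, deepTools 3.4.3, Bowtie2 2.3.3 and cutadapt 1.18 and the build mm10. For their settings and any input control, nothing is given in the sources used here. The authors deposited, for each peak, a fold enrichment (a linear ratio), a −log10 p and a −log10 q, and a score. These belong to the peak and served only to describe or filter peaks within a list. Read counts were not used here, so depth and counting error are unknown.

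Called bases per gene window (span and 20 kb to each side) were divided by the Mb called in that library, and log2(value + 10) was tested with limma 3.58.1 (trend, R 4.3.3) in one fit of the 4 groups, with Benjamini-Hochberg adjustment over 16741 genes with a peak in at least 2 libraries. The steps were tested on simulated data. A fold is on the scale with the added 10, which understates changes of low genes. Overlapping peaks of all libraries were merged to loci, and 500 bp bins were called at 50% cover. The 29 peaks off chromosomes 1 to 19 and X were left out. Promoter sequences matched all 7 genes by symbol. The members and lists were chosen with earlier results of these data known. The genes named are the 7 members, further subunits, synapse partners and markers that passed a test or are given as counts, Fos and Npas4, and for each member the 2 genes most like it. Some further subunits are not reported here. Alternatives were another added value, no filter, other scalings, a stricter q, other windows, a replicate block and leaving out each library.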

Additional observations from a re-analysis of the deposited data

Results flagged for a closer look

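Gabbr1, the GABA-B receptor subunit gene among the 20 synapse partners, moved in opposite directions with KCl in the cultures. KCl minus unstimulated was -102 bp per Mb called in MGE and 29.2 in CTX, and by limma the difference of the responses had an unadjusted p of 0.0094 and an adjusted p of 0.43.

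A library stood apart from the other 3 of its culture in 3 cases among the genes named. About 1 group in 20 does so by chance if its libraries are all alike. Each culture here mixed KCl and unstimulated libraries, so that rate is only a rough guide. Insyn2a had 34.7 bp per Mb in MGE unstimulated 1, Plcl1 had 89.3 in MGE KCl 2, and Plcl1 had 205 in CTX KCl 2.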

How the results depend on the processing

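Over all results and alternatives 484 values kept the direction and the side of the threshold, or for counts stayed within 1.5 times the reported one. Of the rest, 73 counts moved further, 37 log2 differences changed sign, 17 calls were lost and 4 were gained. Permutation p-values were judged unadjusted in this tally. Calls lost or gained by a single gene are given above, with the gene or the permutation. The other exceptions follow, as log2 differences for genes and as counts of genes passing by limma. The causes were not tested. The reported counts were 28 for KCl in CTX, 309 for KCl in MGE, 3734 for MGE against CTX and 2 for the difference of the KCl responses. With an added 50 they were 169 for KCl in CTX, 497 for KCl in MGE and 8 for the difference, and 1 of the 7 genes passed for KCl in MGE. With no filter they were 140 for KCl in CTX, 106 for KCl in MGE, 2204 for MGE against CTX and 124 for the difference. Without scaling 2095 genes passed between cultures and 0 in the other comparisons. Gabra4 then turned to 0.11 for KCl in CTX, and for KCl in MGE Gabra5 turned to 0.02 and Gabrg3 to 0.00. Between cultures Gabra2 turned to -0.04 and Gabra3 to -0.05. With equal called bases 433 genes passed for KCl in CTX and 0 for the difference, and 1 of the 7 passed for KCl in MGE. For KCl in CTX Gabra2 turned to -0.14, Gabra3 to 0.61 and Gabrb2 to 0.02, and between cultures Gabrb2 turned to 0.16. Among peaks with −log10 q of 5 or more, 313 genes and 0 of the 7 passed between cultures and 0 genes passed in the others. For KCl in CTX Gabra2 turned to -0.10, Gabra4 to 1.96 and Gabra5 to 0.34. For KCl in MGE Gabra2 turned to -0.28 and Gabra5 to 0.51, and between cultures Gabra5 turned to -0.24. With the gene span alone 7 genes passed for KCl in CTX, 2288 between cultures and 0 for the difference, and Gabrb2 was 0.06 between cultures. With 50 kb to each side 62 passed for KCl in CTX, and Gabrb2 turned to -0.13 for KCl in MGE and 0.08 between cultures. With all peaks of the shared Gabra4 and Gabrb1 start credited to neither gene, an alternative chosen after seeing the data, Gabra4 turned to -0.27 for KCl in MGE. Dropping only the peaks that overlap both spans gave -0.51, but that rule removes the start peaks of both MGE KCl libraries and leaves the 237 bp start peak of MGE unstimulated 2 with Gabra4, which lowers the value by construction.

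The labels do not say what a replicate number shares, and the main fit assumed no pairing. Correlations of same-numbered deviations were 0.313 in CTX, 0.0237 in MGE, 0.215 between KCl groups and -0.119 between unstimulated groups. With a replicate block 0 genes passed for KCl in CTX, 2 for KCl in MGE and 0 for the difference, and the 7 genes' calls were the same.

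Leaving out each library gave 0 to 25 genes for KCl in CTX, 2 to 259 for KCl in MGE, 2236 to 3474 between cultures and 0 to 6 for the difference. Of the 7 genes 0 to 1 passed for KCl in MGE and 2 to 4 between cultures. Signs turned within -0.21 to 0.44 for Gabra2, -0.89 to 0.80 for Gabra3, -0.38 to 0.30 for Gabra4 and -0.68 to 0.17 for Gabrb2 for KCl in CTX. For KCl in MGE they turned within -0.02 to 0.50 for Gabra2, -0.68 to 1.15 for Gabra3 and -0.24 to 0.29 for Gabrb2, and between cultures within -0.25 to 0.67 for Gabra3 and -0.23 to 0.20 for Gabrb2.

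Runs of 2 or more bins at the 7 genes numbered 1 gained and 1 lost with KCl in MGE, 0 gained and 0 lost with KCl in CTX, 0 in MGE alone and 1 in CTX alone. In the genome such runs numbered 491, 120, 386, 231, 275 and 469. With any base of a bin the counts at the 7 genes were 2, 2, 3, 1, 6 and 4, and with single bins counted 11, 5, 6, 7, 5 and 6. The genome counts were then 3279, 1338, 3347, 2245, 1849 and 3494, and 6749, 3233, 7408, 4432, 2447 and 4985. Of the bins called in any library compared, 11.2%, 5.61%, 5.08%, 5.93%, 2.99% and 4.19% at the 7 genes had these patterns. In the genome the shares were 8.4%, 3.88%, 6.32%, 3.78%, 1.75% and 3.51%. Among peaks with −log10 q of 5 or more the 7 genes held 0 runs lost with KCl in MGE and 0 in CTX alone. With equal called bases they held 2 lost with KCl in CTX and 0 in CTX alone. Leaving out each library gave 1 to 4, 1 to 2, 0 to 4, 0 to 1, 0 to 1 and 1 to 2 runs at the 7 genes.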
